A study of Cricetulus griseus with 3 samples.

Results

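Homeobox, Sox, Fox, Gata, T-box, Neurod/Neurog, Tcf and Hnf genes encode developmental transcription factors, and 175 of the 16928 tested spots of a mouse cDNA array, for 121 of 8146 named genes, belonged to them. They were chosen by symbol alone: a spot entered if the array annotation gave it a single gene symbol that began with Hox, Pax, Sox, Fox, Gata, Tbx, Lhx, Nkx, Pou, Tcf, Hhex, Dlx, Msx, Irx, Neurod, Neurog or Hnf in the form of that family. The sine oculis homeobox genes, which the same rule covered, had no spot, and 3 further spots that named a family member together with another gene were not counted. Of the 121 genes, 87 had 1 spot and 34 had 2 or more.

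Total RNA of S-1 cells was compared with that of parental CHO cells in 3 biological replicates. S-1 is a stable line made from Chinese hamster ovary (CHO) cells that overexpresses the 4 subunits of γ-secretase (NCT-GST, PS1, Flag-PEN2 and APH1-a2-HA) and has an 8-fold enhanced activity according to the labels. According to the study, S-1 was derived from an intermediate CHO line, itself made from the parental cells, and APP is also overexpressed in S-1. S-1 cells were kept in G418 (200 µg/ml), puromycin (25 µg/ml), zeocin (250 µg/ml), hygromycin (250 µg/ml) and blasticidin (10 µg/ml) and received the carrier DMSO (0.05%), whereas untransfected CHO-WT cells received DAPT, which blocks the enzyme, at 10 µM in 0.05% DMSO for 24 h. Each of 3 two-colour arrays held 1 culture of either side, with S-1 in Cy3 on arrays 1 and 2 and in Cy5 on array 3. All values below are log2 ratios, S-1 over DAPT-treated CHO, so that a positive value stands for more signal in S-1. Folds given with them are 2 to the power of the mean log2 ratio, and the clone lists of the study use a different fold scale, for a reason not given in the sources used here. Effects of the transgenes, of the derivation of the line, of drug selection and of DAPT cannot be told apart, since S-1 and CHO-WT cultures differed in all of them.

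γ-Secretase is a membrane protease that cuts the Notch receptors, whose released intracellular part turns on genes such as Hes1, and cuts many other membrane proteins. Homeodomain, HMG-box, forkhead, GATA, T-box and basic helix-loop-helix proteins are DNA-binding factors that fix the identity of cells along the body axis and within organs, and most of them are active in few tissues. The deposited ratios carry no signal intensity, so that whether a transcript was present at all could not be judged.

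The labels were checked with the subunit genes Psenen and Aph1a, whose ratios were positive on all 3 arrays (means 3.09 ± 0.25 and 2.02 ± 0.16, SD, n = 3). Median ratios of the arrays over all tested spots lay between 0.00 and 0.02, and those of the developmental factors between 0.06 and 0.08. Ratios of the member spots correlated between arrays with r of 0.87 to 0.93, over 175 spots that share the same arrays. The 3 replicates limit the precision, and the depth is unknown since no intensities were given.

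At a limma adjusted p below 0.005, 25 of the 121 genes were higher in S-1 cells, 8 were lower and 88 did not pass. Over all 8146 genes, 22.6% passed, 12.4% as higher and 10.3% as lower, against 20.7% and 6.61% of the developmental factors. The median gene value was 0.11 for the developmental factors and 0.01 for all genes. Higher values ran from 0.34 (Foxa2) to 2.51 (Pax4), with a median of 0.82, and 9 of them were above 1. Lower values ran from -0.94 (Foxl1) to -0.38 (Foxo1), with a median of -0.65, so that none reached -1.

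**Figure D1:**
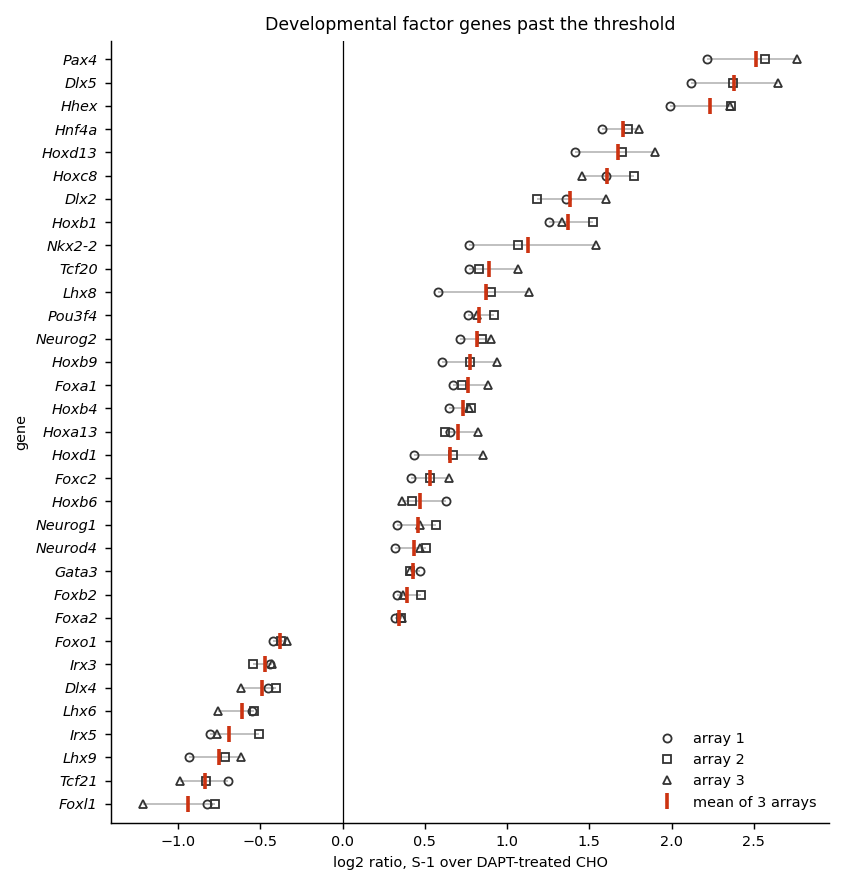
The 33 developmental factor genes that passed the threshold, with the log2 ratio (S-1 over DAPT-treated CHO) on the x axis, one row per gene, open symbols for the 3 arrays, grey lines from the lowest to the highest array and red ticks for their mean. All arrays of a gene lie on the same side of 0, and values run from -0.94 for Foxl1 to 2.51 for Pax4.

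The clone collection a spot came from moved with these counts. The array carried clones of different collections, here called H, P and N after the first letter of the clone names. Spots at positions to which the clone lists of the study gave no letter are here called unlisted. These lists are not the array layout but hold the 2658 clones that passed the study's own threshold, of which 2570 were paired with spots. Of the paired clones 2569 lay at positions of the collection of their letter and so not at unlisted ones, although 382 of the 480 unlisted spots passed here. The positions of the unpaired clones are not known. The reason for this difference was not tested. Of the developmental factor spots 77 were H, 87 P, 3 N and 8 unlisted, whereas 15360 of all tested spots were H and 960 were P. Counted by spot, 29 of 175 were higher and 11 lower, that is 16.6% and 6.29%, against 9.68% and 8.52% of all tested spots (18.2% in either direction).

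Within the H and P collections, the shares of developmental factors that were higher were near those of all spots, and their lower shares were below those of all spots. Of the P spots 20.7% were higher and 9.20% lower, against 19.3% and 12.8% of all P spots (32.1% in either direction). Of the H spots 6.49% were higher and 3.90% lower, against 6.76% and 8.52% of all H spots (15.3% in either direction). Among the unlisted spots 5 of 8 were higher and none was lower, against 78.8% and 0.833% of 480 (79.6% in either direction). The single N spot that passed (Hoxb1) was 1 of 3, where 28.1% of all 128 N spots were higher and 4.69% lower (32.8% in either direction). The median of the members was 0.04 on H and 0.11 on P clones, and 0.00 and 0.03 over all spots of these collections. The larger share of higher calls over the whole array went together with a larger share of P clones, and the part of the collections in single results was not tested.

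**Figure D2:**
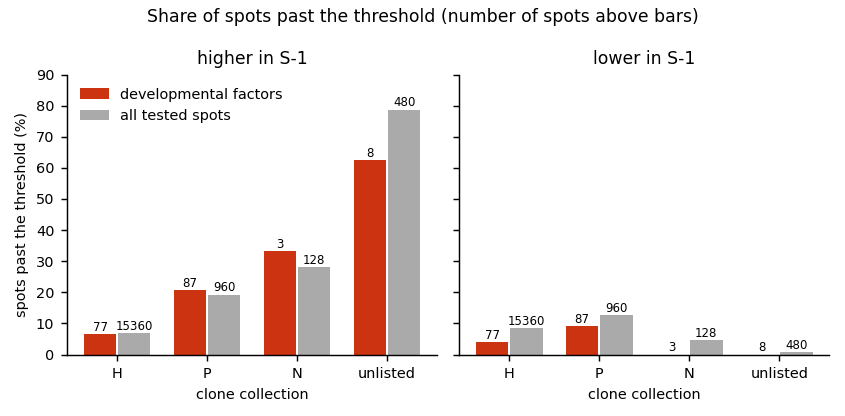
Percentage of spots past the threshold as higher (left) or lower (right) in S-1, by clone collection, for developmental factors (red) and all tested spots (grey), with the number of spots above each bar. On the left, red and grey bars are of similar height for H (6.49% and 6.76%) and P (20.7% and 19.3%), and the unlisted spots stand out with 62.5% and 78.8%, and on the right red bars are shorter for H (3.90% against 8.52%) and P (9.20% against 12.8%).

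**Figure D3:**
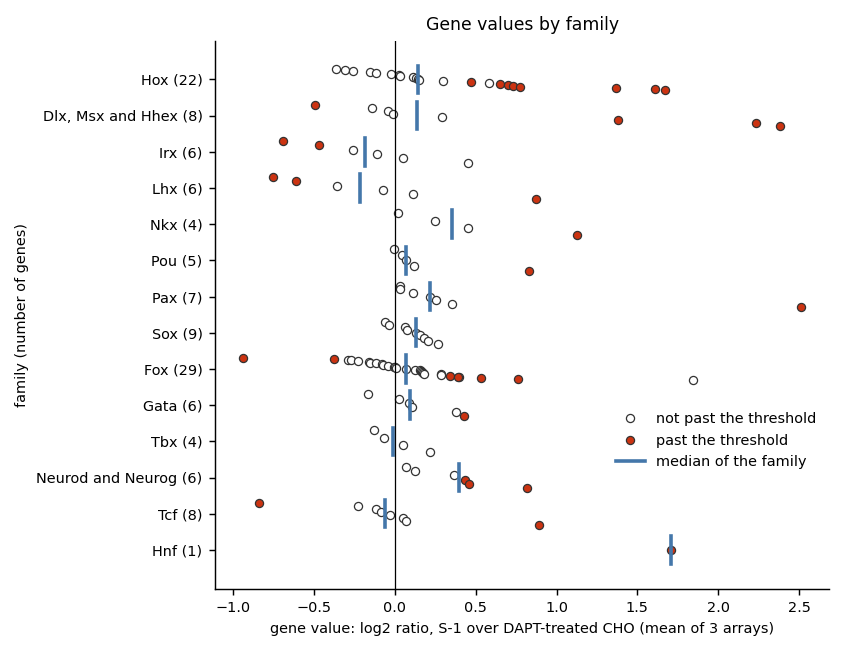
Gene values (mean log2 ratio over 3 arrays, S-1 relative to CHO with DAPT) on the x axis by family on the y axis, with the number of genes in parentheses, filled circles for genes past the threshold and blue lines for the median of a family. The Irx and Lhx families have the lowest medians (-0.19 and -0.21), no Sox or Tbx gene is filled, and the open circle at 1.84 is Foxd1.

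The Hox genes, which lie in clusters and give segments of the body axis their identity, counted 22. Of these 8 (36.4%) were higher and none was lower, against 12.4% and 10.3% of all genes, and their median was 0.15. On P clones alone, 7 of 21 Hox spots (33.3%) were higher and none was lower, against 19.3% and 12.8% of all P spots. The highest value was that of Hoxd13, a factor of digits and the genital bud, with 1.42, 1.70 and 1.90 on arrays 1, 2 and 3 (mean 1.67 ± 0.24, adjusted p = 3.17e-04). Hoxc8, a factor of the thoracic level, read 1.60, 1.77 and 1.46 (mean 1.61 ± 0.16, adjusted p = 1.57e-04). For both genes every array was well above 1. Of the other Hox genes with a single spot, Hoxb9 followed with 0.61, 0.77 and 0.94, and Hoxb4 of the same cluster with 0.64, 0.78 and 0.77 (means 0.77 ± 0.17 and 0.73 ± 0.08). The ranges of these last genes overlapped each other and lay below those of Hoxd13 and Hoxc8.

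Hoxb1, which marks a segment of the embryonic hindbrain, was spotted as 2 clones that differed. Its N clone had 2.30, 2.79 and 2.62 (mean 2.57 ± 0.25), and its H clone 0.21, 0.25 and 0.05 (mean 0.17 ± 0.11, adjusted p = 0.0753). The gene value of 1.37 ± 0.14 thus came from 1 of both clones. The remaining Hox genes that were higher were Hoxa13 (0.70 ± 0.11), a partner of Hoxd13 in limb formation, Hoxd1 (0.65 ± 0.21) and Hoxb6 (0.47 ± 0.14). Hoxa9, a factor of blood progenitors, missed the threshold with 0.46, 0.83 and 0.46 (mean 0.58 ± 0.22, adjusted p = 0.00537). At the low end stood Hoxa2 with -0.50, -0.44 and -0.14 (mean -0.36 ± 0.19, adjusted p = 0.0192), which did not pass either.

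By cluster, 1 of 8 Hoxa genes, 4 of 6 Hoxb genes, 1 of 5 Hoxc genes and 2 of 3 Hoxd genes were higher, with medians of 0.03, 0.60, 0.13 and 0.65. By position in the cluster, counted as the paralog group number from the anterior end, 3 of 6 genes of groups 1 to 4, 2 of 8 of groups 5 to 8 and 3 of 8 of groups 9 to 13 were higher. Neighbouring genes had unlike values: Hoxb5 had -0.02 ± 0.13 between Hoxb4 and Hoxb6, and Hoxa11 and Hoxa10 both had 0.03 ± 0.04 beside Hoxa13. Of all genes 12.4% were higher, and differences between clusters or groups were not tested.

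**Figure D4:**
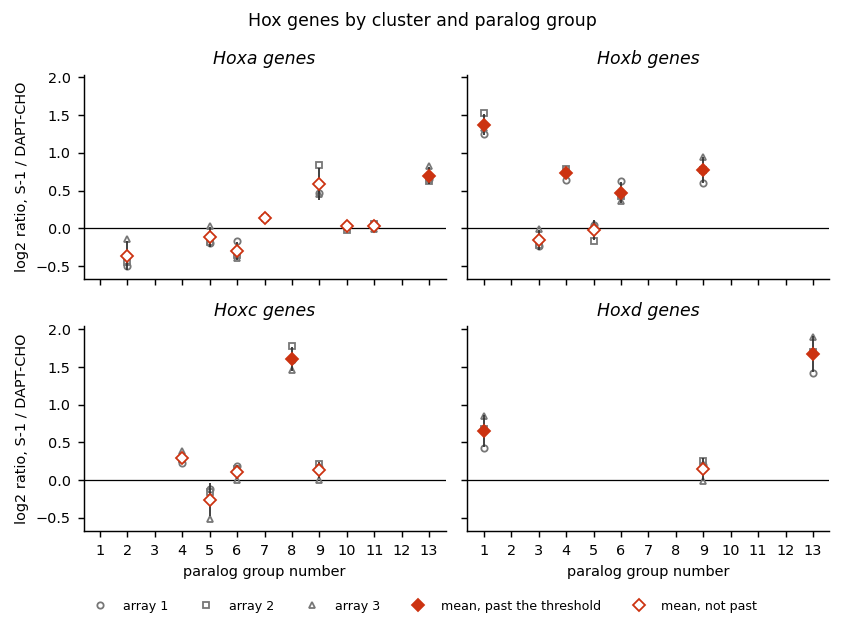
Log2 ratio (y axis, S-1 over DAPT-treated CHO) of the 22 Hox genes by paralog group number (x axis), 1 panel per cluster, with grey symbols for the 3 arrays, diamonds for their mean and bars for the SD. Filled diamonds mark the 8 genes past the threshold, 4 of them Hoxb genes, and Hoxd13 (1.67) and Hoxc8 (1.61) are the highest means.

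Of the 36 genes of other homeobox families, 7 were higher and 5 lower, with a median of 0.06. These are 19.4% and 13.9%, against 12.4% and 10.3% of all genes. Hhex, a factor of anterior endoderm and early liver and thyroid, was among the highest with 1.99, 2.36 and 2.35 (mean 2.23 ± 0.21, adjusted p = 1.48e-04, 4.71-fold) on a P clone. Its arrays 2 and 3, which carry opposite dyes, differed by less than arrays 1 and 2, which carry the same. A single gene with 1 swapped array does not measure a dye effect. Over all tested spots, r was 0.96 for arrays 1 and 2, 0.88 for arrays 1 and 3 and 0.89 for arrays 2 and 3.

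The Distal-less genes, which act in the forebrain, branchial arches and skeleton, went both ways. Dlx5, a factor of bone formation, was at 2.12, 2.37 and 2.65 (mean 2.38 ± 0.26, 5.20-fold) on an unlisted spot, and at 0.83 with each collection centred on its median. Dlx2, needed for forebrain interneurons, was at 1.36, 1.18 and 1.60 (mean 1.38 ± 0.21, adjusted p = 3.95e-04) on a P clone. Dlx4 was lower, with -0.45, -0.40 and -0.62 (mean -0.49 ± 0.11, adjusted p = 0.00245). Dlx1, the gene beside Dlx2 in the genome, had -0.14 ± 0.13, Dlx3 -0.04 ± 0.07 and Dlx6, the neighbour of Dlx5, -0.01 ± 0.04. None of these last 3 passed, nor did Msx2 (0.29 ± 0.08), a factor of the skull.

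The Iroquois genes, which pattern the heart and neural tube, held no gene that was higher, and 2 of 6 were lower. Over all genes 12.4% were higher and 10.3% lower. Irx5 had -0.80, -0.51 and -0.76 (mean -0.69 ± 0.16, adjusted p = 0.00167). Irx3, its neighbour in the genome, had -0.44, -0.54 and -0.43 (mean -0.47 ± 0.06, adjusted p = 0.00147). Both clones of Irx3 passed, the H clone at -0.35 ± 0.04 and the P clone at -0.59 ± 0.09, and every array of either clone was below 0. The largest value in the other direction was that of Irx2 (0.45 ± 0.23, adjusted p = 0.0144), which did not pass.

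LIM-homeobox genes, factors of neurons and gonads, split between directions. Lhx9, needed for the early gonad, had -0.93, -0.71 and -0.62 (mean -0.75 ± 0.16, adjusted p = 0.00126). Lhx6, a factor of cortical interneurons, had -0.55, -0.54 and -0.75 (mean -0.61 ± 0.12, adjusted p = 0.00142). Lhx8, a close relative of Lhx6 that acts in cholinergic neurons of the basal forebrain, was higher instead, with 0.58, 0.90 and 1.14 (mean 0.87 ± 0.28, adjusted p = 0.00302). Of its 2 P clones, the one at 0.99 ± 0.14 passed and the other, at 0.76 ± 0.42, did not. Lhx3, a pituitary factor, had -0.36 ± 0.14, while Lhx1 (-0.07 ± 0.04) and Lhx2 (0.11 ± 0.04) were nearer to 0, and none of these passed.

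Paired-box, Nkx and POU genes each held 1 gene that was higher, and all of these read from an unlisted spot, of which 78.8% over the array were higher. Pax4, a factor of insulin-producing cells, had the highest gene value of all members with 2.21, 2.57 and 2.76 (mean 2.51 ± 0.28, adjusted p = 1.57e-04, 5.72-fold). With each collection centred on its median it was at 0.96 and still passed, and like Dlx5 it had no other spot. The other 6 Pax genes were on P clones, lay between 0.03 and 0.35 and did not pass, Pax1 being the largest with 0.66, 0.13 and 0.27 (adjusted p = 0.0499). Nkx2-2, a factor of the ventral neural tube and the endocrine pancreas, had 2.31, 2.69 and 2.83 on its unlisted spot and -0.77, -0.56 and 0.25 on its N clone. Its gene value of 1.12 ± 0.39 passed (adjusted p = 0.00348), and without the unlisted spot it was -0.36 and did not (adjusted p = 0.208).

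Pou3f4, a factor of the inner ear, differed between its spots in the same way, with 1.47, 1.74 and 1.64 on the unlisted spot and 0.05, 0.10 and -0.01 on the P clone. Its gene value of 0.83 ± 0.08 (adjusted p = 3.51e-04) was 0.05, and not past, without the unlisted spot. Pou5f1, the pluripotency factor Oct4, was at 0.09, -0.04 and -0.05 on an H clone. Nkx6-1, a beta-cell factor, had 0.49, 0.75 and 1.16 on an N clone and 0.15, -0.03 and 0.20 on an unlisted spot. Neither its gene value (0.45 ± 0.20, adjusted p = 0.00982) nor either spot passed.

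No Sox gene passed by limma. The 9 Sox genes, which carry an HMG box and act in stem cells, gonad, cartilage and vessels, lay between -0.06 (Sox4) and 0.27 (Sox12), with a median of 0.13. Sox12 had 0.17, 0.28 and 0.35 (adjusted p = 0.0118). Sox4 had 2 clones of opposite sign, an H clone at 0.24 ± 0.35 and a P clone at -0.37 ± 0.11 (adjusted p = 0.00651), the latter just outside the threshold. At an unadjusted p below 0.05, 4 of the 9 Sox genes would pass, compared with 4419 of all 8146 genes.

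T-box genes, factors of heart, limb and mesoderm, likewise had 0 of 4 past, and 1 of 4 at an unadjusted p below 0.05. Their values ran from -0.13 (Tbx15) to 0.22 (Tbx2), and Tbx2 had 0.34, 0.29 and 0.02.

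The forkhead genes were the largest family with 29 genes on 46 spots and a median of 0.07. Of these genes 4 were higher (13.8%) and 2 lower (6.90%), against 12.4% and 10.3% of all genes. Those that were higher all stood on P clones and none reached 1. Foxa1, a factor that opens chromatin in endoderm, had 0.67, 0.73 and 0.88 (mean 0.76 ± 0.11, adjusted p = 6.68e-04). Its relative Foxa2 had 0.32, 0.36 and 0.36 (mean 0.34 ± 0.02, adjusted p = 0.00269). The third of these genes, Foxa3, was positive on all arrays too but smaller (0.16 ± 0.01, adjusted p = 0.0290). Foxc2, a factor of lymphatic vessels, had 0.53 ± 0.12, its relative Foxc1 0.07 ± 0.06, and Foxb2 0.39 ± 0.08, of which Foxc2 and Foxb2 passed.

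Foxl1, a factor of the gut mesenchyme, was the lowest of all members with -0.83, -0.78 and -1.21 (mean -0.94 ± 0.24, adjusted p = 0.00159). Foxo1, the forkhead factor that insulin signalling keeps out of the nucleus, had -0.42, -0.37 and -0.34 (mean -0.38 ± 0.04, adjusted p = 0.00222) over 3 H clones. The clones themselves had -0.30 ± 0.20, -0.28 ± 0.24 and -0.56 ± 0.35, and none of them passed alone. With the median of the clones in place of their mean, Foxo1 had -0.30 and did not pass (adjusted p = 0.0351). Its relative Foxo3 read -0.18, 0.89 and -0.25, so that array 2 stood alone above 0.

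The widest spread between arrays was that of Foxd1, a factor of kidney stroma, on an unlisted spot. It had 0.03 on array 1 but 2.54 on array 2 and 2.96 on array 3 (mean 1.84 ± 1.58) and did not pass (adjusted p = 0.0538). Without array 1 its mean was 2.75 (adjusted p = 4.54e-04). In 4 member spots, those of Foxd1, Foxo3, a Tcf12 clone and the N clone of Nkx2-2, the lowest and the highest array differed by more than 1. The median of this difference was 0.198 for member spots and 0.172 for all spots.

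In 3 forkhead genes with H clones alone, 1 clone passed and the gene did not. Foxn2 had 1 of 4 clones past (0.66 ± 0.18), with the others between -0.09 and 0.10. Foxp1, a factor of lymphocytes and heart, had 0.46 ± 0.09 and 0.10 ± 0.19. Foxp2, known for its part in speech, had -0.33 ± 0.04 and 0.18 ± 0.08 (adjusted p = 0.00480 and 0.0481), so that its clones pointed in opposite directions.

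Gata3, a factor of T helper cells, was the single GATA gene to pass, with 0.47, 0.41 and 0.41 (mean 0.43 ± 0.03, adjusted p = 0.00146). Its H clone (0.48 ± 0.11) and P clone (0.38 ± 0.10) were alike, and the H clone passed. Gata2, a factor of blood stem cells, had 0.45, 0.49 and 0.20 (mean 0.38 ± 0.16, adjusted p = 0.00994) over 3 H clones at 0.34, 0.38 and 0.43, of which the middle one passed. Gata1, Gata4, Gata5 and Gata6, of blood, heart and endoderm, lay between -0.17 and 0.11 and did not pass.

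Of the 6 Neurod and Neurog genes, basic helix-loop-helix factors that start the differentiation of neurons, 3 were higher, none was lower and all gene values were above 0. Among all genes 12.4% were higher and 10.3% lower. Neurog2 had 0.71, 0.85 and 0.90 (mean 0.82 ± 0.10, adjusted p = 4.62e-04). Neurod4 had 0.32, 0.51 and 0.47 (mean 0.43 ± 0.10, adjusted p = 0.00309). Neurog1 had 0.62, 1.12 and 0.84 on its P clone but 0.04, 0.02 and 0.10 on its unlisted spot, with a gene value of 0.46 ± 0.12 (adjusted p = 0.00345). When each collection was centred on its own median, this gene value turned to -0.34 and passed as lower (adjusted p = 0.00414). Neurod6 (0.36 ± 0.11), Neurod1 (0.12 ± 0.07) and the pancreatic factor Neurog3 (0.07 ± 0.07) did not pass.

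Hnf4a, a nuclear receptor that drives hepatocyte and gut genes, was the only Hnf gene measured and was higher on both its spots. The unlisted spot had 2.15, 2.41 and 2.45 and the P clone 1.01, 1.07 and 1.15, so that the spots did not overlap. The gene value was 1.71 ± 0.12 (adjusted p = 1.36e-04, 3.26-fold), and 0.91 with the collections centred.

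The Tcf symbols join unrelated proteins, and 1 of 8 genes was higher and 1 lower (12.5% each, against 12.4% and 10.3% of all genes). The E proteins Tcf3, Tcf4 and Tcf12, the partners of tissue-specific helix-loop-helix factors, had gene values of 0.05, -0.11 and -0.03, and none of their 13 spots passed. Tcf20, a transcriptional coregulator without ties to the E proteins, had 2.02, 2.23 and 2.37 on one H clone (mean 2.20 ± 0.18) and -0.48, -0.56 and -0.23 on the other (mean -0.43 ± 0.17, adjusted p = 0.0102). Its gene value of 0.89 ± 0.16 passed. Tcf21, a helix-loop-helix factor of mesenchyme in kidney, lung and heart, had -1.38, -1.60 and -1.95 on its P clone (mean -1.64 ± 0.29). The H clone of Tcf21 had -0.01, -0.06 and -0.03, and the gene value was -0.84 ± 0.15 (adjusted p = 8.35e-04).

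Tcf7l1, a repressor at Wnt targets, had a P clone that passed (-0.46 ± 0.13) and an H clone at 0.28 ± 0.24. One of 4 clones of Tcf25 passed (-0.62 ± 0.07), and its gene value was -0.23 ± 0.04 (adjusted p = 0.0106). Neither gene passed as a whole.

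Clones of the same gene are not replicates, yet they show how far a gene value depends on the clone. Among the 34 genes with 2 or more spots, 16 had spots of both signs, that is 47.1%, against 41.9% of 2877 such genes on the array. The median range between spots of a gene was 0.51 for members and 0.22 for all. A range over 1 occurred in 6 members (17.6%, against 9.28% of all): Nkx2-2, Tcf20, Hoxb1, Tcf21, Pou3f4 and Hnf4a. At least 1 spot passed in 16 of the 34, and all spots passed in one direction in 2 of them, Hnf4a and Irx3. No gene had spots past in both directions. In 6 genes a spot passed while another had the opposite sign, namely Nkx2-2, Tcf20, Foxn2, Tcf7l1, Tcf25 and Foxp2. Whether a mouse clone also bound hamster transcripts of related family members was not tested.

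**Figure D5:**
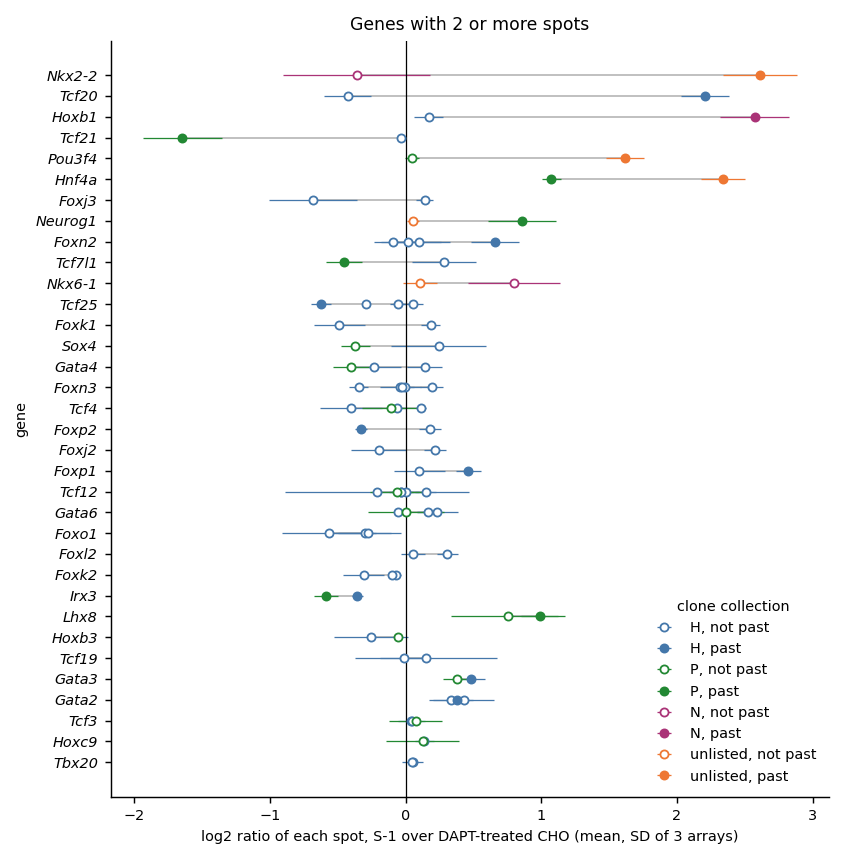
Log2 ratio (x axis, S-1 over DAPT-treated CHO, mean and SD of 3 arrays) of every spot of the 34 genes with 2 or more spots (y axis), coloured by clone collection, filled where the spot passed and joined by a grey line per gene. Nkx2-2 and Tcf20 at the top have spots on either side of 0 more than 2 log2 units apart, and the ranges shrink towards Tbx20 at the bottom.

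Partners and targets were read from lists of genes, to be set beside the 12.4% of all genes that were higher, the 10.3% that were lower and the 4419 of 8146 at an unadjusted p below 0.05. Of 26 measured cofactors of homeodomain, HMG-box and GATA proteins, none was higher and 2 were lower (median -0.05, against 0.01 for all genes), with 10 of 26 at an unadjusted p below 0.05. The lower ones were Pygo1, a coactivator of Wnt signalling, with -0.80, -0.70 and -0.73, and Ctnnb1, which encodes β-catenin, with -0.49, -0.51 and -0.57. Of 17 Polycomb and trithorax genes, which keep developmental genes silent or active, 2 were higher and 2 lower (median 0.08). Ezh1, a histone methyltransferase of Polycomb, had -0.91 ± 0.05 and its cofactor Jarid2 -0.31 ± 0.04. Jarid2 did not pass with the median of its spots (-0.29, adjusted p = 0.00596) or on H clones alone (-0.22, adjusted p = 0.0115). The other Polycomb genes did not pass and lay on both sides of 0, from Phc1 (-0.24 ± 0.02) to Ezh2 (0.32 ± 0.10). The trithorax genes Kmt2b and Ash2l had 0.58 ± 0.03 and 0.49 ± 0.06. Wdr5, Rbbp5 and Men1 had 0.06, 0.09 and 0.04 and did not pass.

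Of 14 other helix-loop-helix genes, 7 were higher and 1 lower (median 0.23). Myod1, the muscle determination factor, had 2.60 ± 0.30 on an unlisted spot, the Notch target Hes1 1.43 ± 0.25 on an N clone and its relative Hes5 0.85 ± 0.12 over an N and a P clone. Id2, which binds and blocks E proteins, had -0.73 ± 0.24 and was the lower one. Its relative Id3 was higher, with 0.69 ± 0.24 over an H clone and an unlisted spot. Id1 (-0.30 ± 0.19) and Id4 (0.18 ± 0.07) did not pass. Without unlisted spots 5 of the helix-loop-helix genes passed in place of 8.

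Of 17 genes of insulin signalling upstream of FoxO factors and of FoxO targets, 7 were higher and none lower (median 0.33), and each of these 7 included an unlisted spot, of which 78.8% over the array were higher. Without unlisted spots 1 of them passed, the insulin receptor gene Insr (0.65). The largest were the gluconeogenic gene Pck1 (2.53 ± 0.14), the insulin receptor substrate Irs2 (2.14 ± 0.29), the glucose-releasing phosphatase gene G6pc (1.45 ± 0.18) and Sod2 (1.04 ± 0.04), a mitochondrial superoxide dismutase. Without the unlisted spot G6pc had 0.25 and did not pass, and the gene values of Pck1, Irs2 and Sod2 rest on an unlisted spot alone.

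Markers of tissues in which several members act were higher as well in part. Of all genes 12.4% were higher and 10.3% lower, and of all unlisted spots 78.8% were higher. Of 10 liver markers 7 were measured, with 4 higher and 1 lower (median 1.08), among them Apoa2 (2.42 ± 0.23, unlisted) and Afp (2.10 ± 0.15, a P clone) as higher and Alb, the serum albumin gene, as the lower one (-0.36 ± 0.06). Without unlisted spots 3 liver markers passed, Afp, Apoa1 (0.34) and Alb, and Apob was at 0.25 and did not, while Apoa2 with the collections centred was at 0.87. Of 10 pancreas and gut markers 8 were measured and 6 were higher (median 1.06). Among these were Ins2, an insulin gene, at 2.50 ± 0.21 on an unlisted spot and Gast, the gastrin gene, at 2.06 ± 0.18 on a P clone. Cck (-0.34 ± 0.48) and Gcg (0.09 ± 0.03) did not pass. Without unlisted spots 4 pancreas and gut markers passed, and Slc2a2 was at -0.20 and did not. Of 8 neuronal markers 3 were measured, with Snap25 higher (2.63 ± 0.26, unlisted) and Tubb3 lower (-0.53 ± 0.02), the latter alone without unlisted spots. No tested spot carried the symbol of a listed muscle or blood marker alone, so that none had a gene value. The study's functional gene lists name Hba-a1 and Hbb-b1 of the blood list, so that absence from the array cannot be inferred. As only ratios exist, the level of these markers in either cell line is unknown, and their part in the results for the transcription factors was not tested.

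With 3 arrays, an exact sign-flip permutation test of a single gene cannot fall below 0.25, so that all calls rest on the spread that limma shares between genes. Of the 33 genes, 9 passed with each array left out in turn, namely Pax4, Dlx5, Hhex, Hnf4a, Hoxd13, Hoxc8, Dlx2, Hoxb1 and Pou3f4, and all were higher in S-1. None of the 8 lower genes did. Without array 1, Tcf21 was the only lower gene to pass, and without array 2 it was Irx5. The share of all genes that passed with each array left out in turn was not counted. Of all tested spots, 3080 passed with 3 arrays, 1351 without array 1 and 363 without array 2. Among the 9 genes, Pax4 and Dlx5 have an unlisted spot alone, and Pou3f4 was at 0.05 without its unlisted spot.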

How the data were processed

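Three-array data of S-1 against DAPT-treated CHO cells were used as deposited log2 ratios: the authors amplified the RNA, hybridised it to mouse cDNA arrays and normalised within print-tip groups by lowess without background subtraction. Image analysis settings and a genome build were not given in the sources used here. Of 17664 spots in 32 blocks, 736 at 23 block positions without a gene name were left out as controls, whose ratios followed the dye (r of -0.96 between arrays 1 and 3 as turned to S-1). Of the 16928 others, 12563 had 1 gene symbol, 412 several and 3953 none. Symbols are those of the platform annotation and can be old, and 94 of 121 member symbols occur in the hamster annotation (RefSeq). A gene value is the mean of its spots. Collections were read from the block position, after 2570 of 2658 clones of the study's lists were paired by value and 2569 letters fitted. The position rule was drawn from these same letters, so that their fit is no independent check of it. For the unlisted positions no letter was at hand to define a collection. The comparison columns of those lists, whose folds are 2 times those given here in both directions, were otherwise not used.

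Ratios were tested against 0 with limma 3.58.1 (lmFit, eBayes, two-sided) in R 4.3.3, with Benjamini-Hochberg adjustment over all spots or all genes and the study's threshold of 0.005. The fit was tested on simulated data. Errors are SD over 3 arrays. Members, lists and named genes (all members past the threshold, 1 or more per family, those with spots of opposite sign, and up to 4 per list) were chosen with earlier results of these data known. Alternatives were another threshold, a fold minimum, control spots, centring, scaling, quantile normalisation, a dye coefficient, array weights, a robust prior, 1 collection, unlisted spots, the median of spots and each array left out.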

Additional observations from a re-analysis of the deposited data

How the results depend on the processing

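The 33 member genes past the threshold were all kept when arrays were centred or scaled, print-tip blocks centred, array weights or a dye coefficient used, the prior made robust or array 3 left out. Quantile normalisation lost Hoxb6 and the median of spots lost Foxo1. Centring the collections gave 21 higher and 10 lower, lost Hoxb6, Nkx2-2 and Pou3f4 and turned Neurog1 to -0.34 and Sod2 to -0.51, both past as lower. Without unlisted spots, Nkx2-2 turned to -0.36 and Slc2a2 to -0.20, Pou3f4 was lost, and Pax4 and Dlx5 had no value. The 4 partner and target lists (marker lists apart) then held 12 genes past in place of 21, and 2652 of all spots passed in place of 3080. The causes were not tested. At a threshold of 0.05, 61 member genes passed (45 higher, 16 lower), 79 member spots, 6733 of all spots and 39 genes of these lists. With a minimum size of 1 on the log2 scale 9 member genes passed (9 higher, 0 lower), 13 member spots, 739 of all spots and 7 list genes. A dye coefficient gave 59 member genes (42 higher, 17 lower), 84 member spots, 6835 spots and 39 list genes, and array weights 51 (38 higher, 13 lower), 67, 5393 and 33. With control spots included, 18 member spots and 1186 spots passed, against 40 and 3080. In the H collection alone, 4 member genes passed (2 higher, 2 lower: Gata3, Tcf20, Foxo1 and Irx3), 8 member spots, 2368 of all H spots and 8 list genes.

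Leaving out an array gave 10 to 52 member genes (9 to 38 higher, 1 to 14 lower), 10 to 79 member spots, 363 to 6265 of all spots and 8 to 36 list genes, the lowest without array 2 and the highest without array 3. Without array 1, 19 member genes passed, of which 1 was lower. Without array 3, both remaining arrays had S-1 in Cy3, and dye and cell line cannot be told apart. Signal over background is unknown, which limits all values. No paired analysis was possible because there is a single group, in which each array already pairs both cultures.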
